A study of Homo sapiens with 9 samples.

Results

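The genes described here are the numbered zinc finger genes of human chromosome 19. A gene was a member when its symbol was ZNF followed by digits only and its transcripts lay on the primary sequence of chromosome 19, which gave 240 members among 27860 genes. The rule used names and positions and no expression value. All 240 were listed as protein coding in RefSeq.

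RNA-seq was performed on DU145 cells, an established human prostate cancer line. Control cells expressed a scrambled shRNA (3 libraries), and *FZD6* knockdown cells expressed either shRNA1 (3 libraries) or shRNA2 (3 libraries), both directed against *FZD6*, a frizzled receptor for Wnt ligands. The genotype was labelled WT in all samples, no other allele or agent was given, and the hairpins were cloned in pLKO.1 or, for doxycycline-inducible expression, in a Tet-pLKO vector. Which of these vectors the sequenced cells carried is not given in the sources used here. Nothing in the labels says that the 3 libraries of a group came from separate cultures, so the p-values measure only the spread between these libraries.

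Most zinc finger proteins of chromosome 19 join a string of C2H2 fingers, which read DNA, to a KRAB box. The KRAB box recruits the corepressor TRIM28, which in turn brings the histone methyltransferase SETDB1, HP1 proteins and the NuRD complex, so that the bound DNA is packed into H3K9-methylated chromatin. Many of these proteins bind and silence transposable elements, and their genes arose by tandem duplication, which left large clusters of similar genes along the chromosome. How reads shared by near-identical copies were assigned is not given in the sources used here, so the level of a single paralog is less certain than that of a gene without copies.

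*FZD6* was measured first. Its level was 20.9, 20.5 and 20.04 FPKM in the control libraries, 9.47, 10.2 and 9.80 FPKM with shRNA1 and 7.84, 8.79 and 7.69 FPKM with shRNA2 (two-sided exact permutation test of 6 against 3 libraries, p = 0.0238, the smallest this design can give). The epithelial keratins *KRT8* and *KRT18* stood at 230 and 272 FPKM in control cells, with *EPCAM* at 17.6 and *CDH1* at 4.68 FPKM. The luminal prostate genes *KLK3* and *KLK2* were listed at 0 in every control library. The leukocyte gene *PTPRC* was listed at 0 in all 9 libraries, *PECAM1*, *COL1A1* and *COL1A2* stayed below 1 FPKM, and *MBP*, a myelin gene, stood at 12.9 FPKM. Library depth is not given in the tables, and an estimate from the confidence bounds that Cufflinks gives each value, read as counting error, together with reference transcript lengths ran from 32.6 M to 40.8 M fragments. FPKM over all genes summed to 812110 and 810169 in shRNA2 replicates 1 and 3, above every control and shRNA1 library (736065 to 778954). In shRNA2 replicate 2 the sum was 733113, far from its own group but just below the lowest control library (736065). The part of these sums in the results was not tested beyond leaving out each library in turn.

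The members were weakly expressed. FPKM, which scales the fragments of a transcript by its length and by the depth of the library, allows levels of genes to be compared per length. The median member stood at 1.28 FPKM in control cells. Only 139 of the 240 members reached a mean of 1 FPKM over the 9 libraries and were tested. Their median control level was 2.33 FPKM, against 9.82 FPKM for the 12509 genes tested in all. Among the 101 members below the filter, 23 had a mean under 0.1 FPKM, and *ZNF536*, which lies far from any other member, was listed at 0 in every library. The last members left out were *ZNF792* and *ZNF443* (means of 0.981 and 0.983 FPKM) and the first kept were *ZNF233* and *ZNF91* (1.01 FPKM each). *ZNF91*, known as a repressor of SVA retrotransposons, was thus measured close to the limit. On the median member transcript 1 FPKM corresponded by the same estimate to about 98.5 to 123 fragments, so counting error is not negligible for these genes.

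A few members far exceeded the others. The highest control means were those of *ZNF358* (46.5 ± 2.31 FPKM, SD, n = 3), *ZNF146* (43.8 ± 0.837 FPKM), *ZNF580* (39.7 ± 2.32 FPKM), *ZNF787* (31.1 ± 0.722 FPKM) and *ZNF414* (18.4 ± 0.852 FPKM). *ZNF146* encodes a protein made almost wholly of zinc fingers, without a KRAB box, and its locus overlaps that of *ZNF565*, so reads of the pair may be mixed. These 5 genes held 27.8% of the summed FPKM of all members. None of them passed the test between knockdown and control, with log2 differences between -0.10 (*ZNF358*, SE 0.06) and 0.09 (*ZNF580*, SE 0.07).

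Summed over all 240 members, expression was slightly higher in every knockdown library than in every control library. The sum was 642, 654 and 644 FPKM in control cells, 667, 665 and 663 FPKM with shRNA1 and 675, 685 and 677 FPKM with shRNA2. The groups did not overlap, and the knockdown mean exceeded the control mean by 3.95%. The rise was 2.87% with shRNA1 and 5.03% with shRNA2. It was carried by the less abundant members: without the 5 highest the knockdown mean was 5.65% above control, while the 5 highest alone differed by -0.458% and overlapped between groups. The members below the filter summed to 44.5 to 47.3 FPKM in control and 45.9 to 52.1 FPKM in knockdown libraries and overlapped as well. The sum over all genes of the tables was itself 3.43% higher in knockdown cells, with overlapping ranges. For the 233 numbered *ZNF* genes on other chromosomes the difference was 2.42%, and for the 1450 remaining genes of chromosome 19 it was 4.77%. With shRNA2 alone the rise of the remaining chromosome 19 genes was 4.76%.

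**Figure D1:**
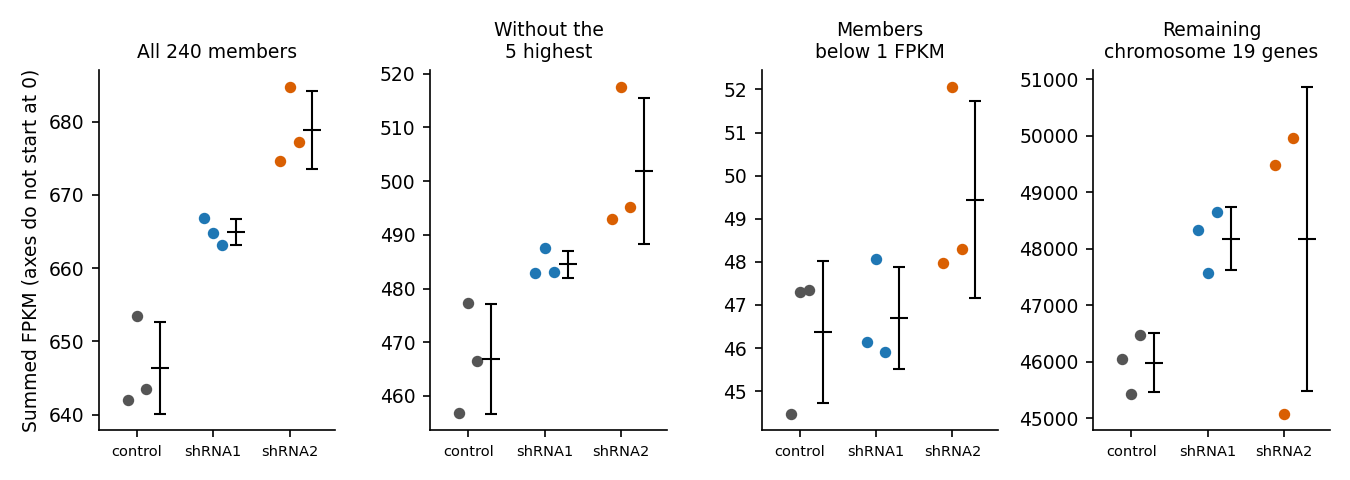
Summed FPKM (vertical axes, not starting at 0) in each library for control, shRNA1 and shRNA2 cells, with points for libraries and bars for the mean ± SD (n = 3). For all 240 members and for the members without the 5 highest, every knockdown point lies above every control point, whereas the members below 1 FPKM and the remaining chromosome 19 genes overlap between groups.

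Gene by gene, few members passed the test. In the comparison of the 6 knockdown with the 3 control libraries, 8 of 139 tested members rose and 1 fell (limma on log2(FPKM + 1), Benjamini-Hochberg adjusted p under 0.05). That is 5.76% higher and 0.719% lower, where 13.5% and 7.1% of all tested genes were called higher and lower, 20.6% in all. With an unadjusted p under 0.05, 25 members were higher and 2 lower (19.4% in all). Over all tested genes 2813 were higher and 1618 lower by this measure (35.4% in all). The share of called members thus lay below the background in both directions. Tested members also stood at a lower level than all tested genes (median 2.33 against 9.82 FPKM in control cells). Shares among genes of a similar level were not compared. The counts were sensitive to the control libraries: 3, 4 and 4 members were called without control replicate 1, 2 or 3.

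The direction of the differences was nevertheless uneven. Of the 139 tested members, 110 had a positive log2 difference (79.1%), against 58.2% of all tested genes. Their median was 0.06 on the log2 scale, compared with 0.03 for all tested genes, 0.02 for the 167 tested *ZNF* genes on other chromosomes and 0.02 for the 706 tested genes remaining on chromosome 19. The 23 tested genes of chromosome 19 with other zinc finger symbols, such as *ZFP*, *ZSCAN* and lettered *ZNF* names, had a median of 0.10, and 73.9% were positive. Of these 23, 2 rose and 0 fell by limma (8.70%, against 20.6% of all tested genes). At an unadjusted p under 0.05, 5 were higher and 0 lower (21.7%, against 35.4%). Positive differences made up 61.7% for *ZNF* genes on other chromosomes and 55.9% for the remaining genes of chromosome 19. The quartiles of the members' differences were 0.01 and 0.10, against -0.07 and 0.11 for all tested genes. The lower quartile of the members was thus above that of all tested genes, and the upper quartile was not. The median standard error of a member was 0.05. The values of the members are not independent of each other, as all come from the same 9 libraries, and no test was applied to the list.

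**Figure D2:**
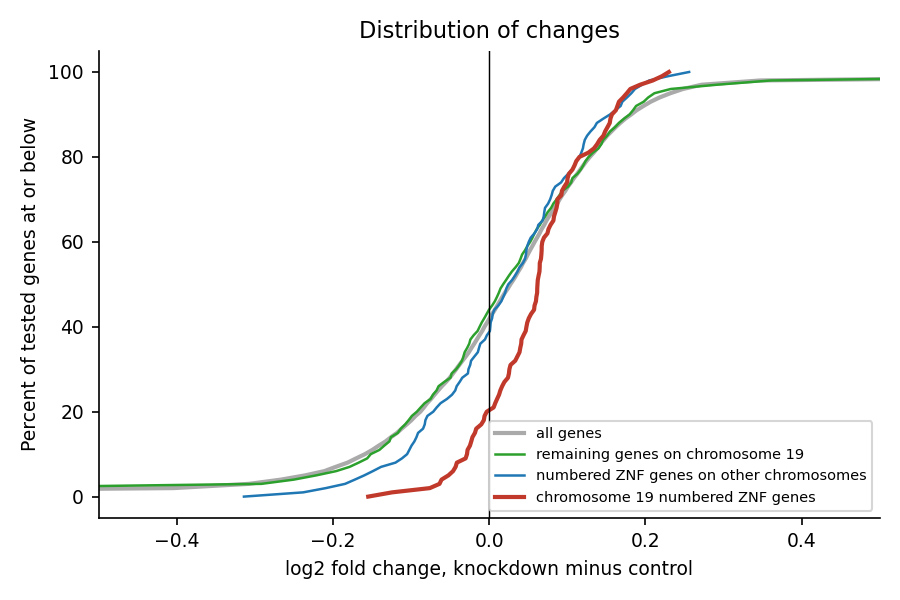
Cumulative percent of tested genes (vertical axis) at or below a given log2 fold change between knockdown and control cells (horizontal axis). The curve of the 139 chromosome 19 members has 29 genes below 0 and reaches its median at 0.06, to the right of the curves for all genes, for the remaining genes of chromosome 19 and for *ZNF* genes on other chromosomes over its lower part.

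Each of the members that passed the test changed by a modest amount. Those described next, apart from *ZNF569*, were picked among the called members for non-overlapping groups, so this lack of overlap follows from the choice. *ZNF473* (chr19:50026005-50048774, hg38) encodes a protein of the histone pre-mRNA processing machinery that works with the U7 snRNP. It stood at 2.68, 2.99 and 3.04 FPKM in control cells, 3.43, 3.25 and 3.62 FPKM with shRNA1 and 4.00, 3.66 and 3.50 FPKM with shRNA2. All knockdown libraries exceeded all control libraries, and the mean was 23.3% higher (log2 difference 0.23, SE 0.05, adjusted p = 0.0182). Since 1 is added to each value before the logarithm, a log2 difference understates the change of genes at this level. Without control replicate 1 or 2 the adjusted p was 0.0798 or 0.0555.

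*ZNF383* (chr19:37218214-37248740), a KRAB zinc finger gene, measured 1.60, 2.07 and 1.97 FPKM in control cells, 2.34, 2.41 and 2.26 FPKM with shRNA1 and 2.43, 2.39 and 2.26 FPKM with shRNA2. The groups did not overlap and the mean was 24.8% higher (log2 difference 0.22, SE 0.05, adjusted p = 0.0178). With the trend of the differences with transcript length removed, the adjusted p was 0.0632. *ZNF57* (chr19:2900928-2918476), also of the KRAB type, was at 4.23, 4.90 and 4.51 FPKM in control cells, 5.28, 4.97 and 5.15 FPKM with shRNA1 and 5.31, 5.71 and 5.67 FPKM with shRNA2. Its lowest knockdown value lay just above its highest control value, with a mean 17.6% higher (log2 difference 0.19, SE 0.05, adjusted p = 0.0267). The call was lost without control replicate 1 (adjusted p = 0.110) or 3 (0.0821), and with the length trend removed (0.138).

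*ZNF551* (chr19:57681977-57690648) stood at 2.02, 2.19 and 2.13 FPKM in control cells, 2.44, 2.35 and 2.29 FPKM with shRNA1 and 2.58, 2.72 and 2.68 FPKM with shRNA2. It was higher in all 6 knockdown libraries and highest with shRNA2 (log2 difference of the pooled comparison 0.17, SE 0.05, adjusted p = 0.0299). Leaving out any 1 control library ended the call, with an adjusted p between 0.0708 and 0.116, as did leaving out shRNA2 replicate 1 (0.0520) or 3 (0.0510) and adding a replicate block (0.0569). *ZNF761* (chr19:53431984-53458261) measured 2.87, 2.73 and 2.51 FPKM in control cells, 3.15, 3.18 and 3.02 FPKM with shRNA1 and 3.02, 3.18 and 3.19 FPKM with shRNA2. Its pooled difference was 0.16 (SE 0.03, adjusted p = 0.0157), and both hairpins gave nearly the same value (0.15 and 0.16). The locus overlaps *TPM3P9* and the readthrough transcript *ZNF765-ZNF761*, and with protein-coding transcripts alone the difference was 0.04 (adjusted p = 0.809), so the call rested on the noncoding entries of the gene. It was also lost without control replicate 2 (0.0555) or 3 (0.0536), and with the length trend removed (0.0773).

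The remaining rises were smaller. *ZNF45* (chr19:43912624-43935282) was at 3.61, 3.93 and 3.86 FPKM in control cells, 4.23, 4.23 and 4.10 FPKM with shRNA1 and 4.40, 4.55 and 4.11 FPKM with shRNA2 (log2 difference 0.13, SE 0.04, adjusted p = 0.0321). *ZNF181* (chr19:34734243-34745378) was at 1.39, 1.47 and 1.57 FPKM in control cells, 1.58, 1.67 and 1.67 FPKM with shRNA1 and 1.75, 1.77 and 1.69 FPKM with shRNA2 (0.12, SE 0.03, adjusted p = 0.0362). Knockdown values exceeded control values throughout for both, by a margin that was very narrow for *ZNF181*. Over the alternatives and left-out libraries, *ZNF45* lost its call in 7 of 19 fits and *ZNF181* in 8 of 19, with adjusted p up to 0.129 and 0.142. *ZNF569*, named here after its values were seen because its groups overlapped, rose by 0.11 (adjusted p = 0.0373), with 3.57 to 3.92 FPKM in control and 3.91 to 4.17 FPKM in knockdown libraries.

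*ZNF865* (chr19:55613593-55618541) was the 1 member that fell. It measured 6.83, 6.79 and 6.43 FPKM in control cells, 5.99, 6.06 and 6.15 FPKM with shRNA1 and 6.00, 5.50 and 6.09 FPKM with shRNA2. All knockdown libraries lay below all control libraries, with a mean 10.8% lower in FPKM. On the log2 scale the gene fell by 0.14 (SE 0.04, adjusted p = 0.0255). With quantile normalization it was not called (adjusted p = 0.0598), which left 10 members higher and 0 lower under that scaling. Without control replicate 1 or 2 the adjusted p was 0.0999 or 0.0993, and with the length trend removed it was 0.0772.

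Counting positions of libraries in place of the test gave a similar number. In 11 tested members every knockdown library exceeded every control library and in 1 the reverse held, where 16.4% and 9.46% of all tested genes did so. Of the 101 members below the filter, *ZNF563* and *ZNF681* were higher in every knockdown library and *ZNF350* and *ZNF587* lower in every one. They were named after their values were seen. The shares above cover tested genes only, and that for all genes below the filter was not computed. *ZNF563*, for example, stood at 0.461, 0.462 and 0.445 FPKM in control cells and at 0.534 to 0.754 FPKM in knockdown cells. No test was made on these genes.

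**Figure D3:**
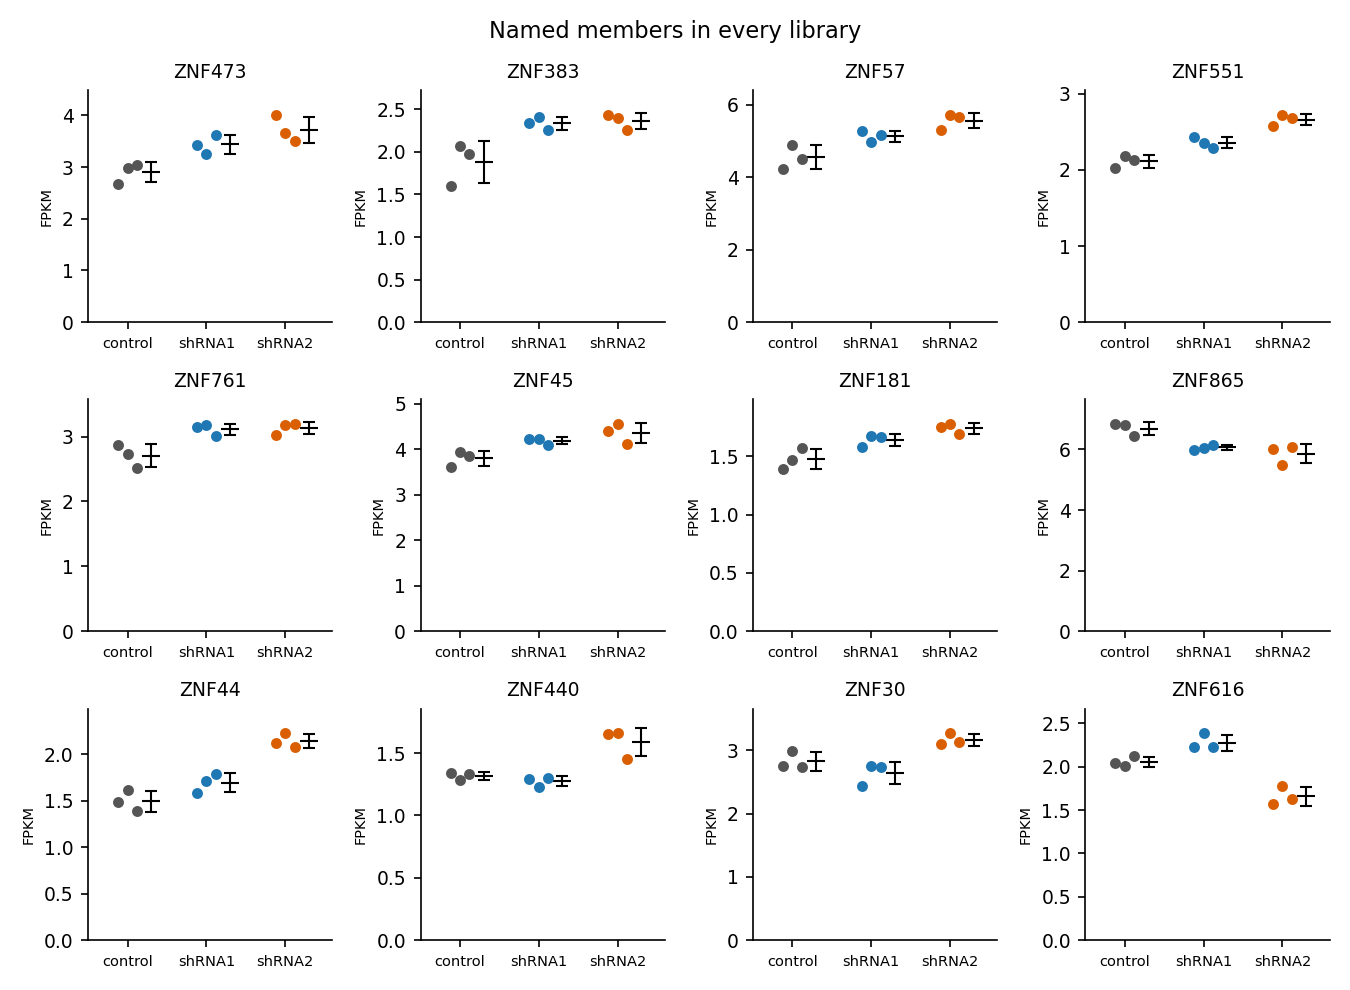
FPKM (vertical axes, starting at 0) of 12 members in each library of control, shRNA1 and shRNA2 cells, with points for libraries and bars for the mean ± SD (n = 3). In *ZNF473*, *ZNF383*, *ZNF57*, *ZNF551*, *ZNF761*, *ZNF45* and *ZNF181* all knockdown points lie above the control points and in *ZNF865* below them. The choice of these genes required this separation. *ZNF44*, *ZNF440*, *ZNF30* and *ZNF616* separate shRNA2 from shRNA1.

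With all 9 libraries in 1 fit, more members were called against control with shRNA2 than with shRNA1. With shRNA1, 5 members rose and 0 fell (background 11.7% higher and 7.19% lower, 18.8% in all). At an unadjusted p under 0.05, 18 were higher and 1 lower (13.7% in all, against 34.9% of all tested genes). With shRNA2, 21 rose and 2 fell (background 15.3% and 11.4%, 26.7% in all). At an unadjusted p under 0.05, 37 were higher and 2 lower (28.1% in all). Of the 12509 tested genes, 2941 were higher and 2048 lower by this measure (39.9% in all). Fits of only the 6 libraries compared called 8 members with shRNA1 and 10 with shRNA2. The share of members called higher with shRNA2, 15.1%, was thus near that of all tested genes, whereas the share called lower, 1.44%, was below it. Both comparisons used the same control libraries. The shRNA1 count was the less stable: it was 0 after leaving out any 1 shRNA1 library, 1 without control replicate 1 or 3, 3 or 2 without shRNA2 replicate 1 or 3, and 9 without shRNA2 replicate 2. The shRNA2 count was 11 without control replicate 1 or 3.

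Of the 25 members called with at least 1 hairpin, *ZNF383*, *ZNF551* and *ZNF761* were called with both. *ZNF85* and *ZNF461* were called with shRNA1 alone, at 0.23 and 0.14 on the log2 scale against 0.13 and 0.02 with shRNA2, and neither pair of values passed the direct test between the hairpins. These members, and those of the next paragraph outside the direct test, were singled out after their values were seen.

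The members that rose with shRNA2 included neighbours, whose number was not compared with that for members placed at random. *ZNF426*, *ZNF121* and *ZNF561* follow each other among the tested members near 9.5 Mb and all were called. *ZNF121* showed the largest rise of the 3: it stood at 2.39, 2.29 and 2.66 FPKM in control cells, 2.50, 2.31 and 2.68 FPKM with shRNA1 and 3.34, 2.92 and 3.63 FPKM with shRNA2 (log2 difference of shRNA2 from control 0.32, adjusted p = 0.0157). The direct test between the hairpins narrowly missed the threshold (adjusted p = 0.051). *ZNF468*, *ZNF845*, *ZNF525* and *ZNF761* lie together in the block from 51.6 to 53.6 Mb, with log2 differences of 0.22, 0.22, 0.23 and 0.16 with shRNA2. *ZNF845* and *ZNF525* are consecutive tested members of this cluster of similar genes, and the sharing of reads between them was not resolved here.

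The direct comparison of the hairpins called 4 members: *ZNF44*, *ZNF440* and *ZNF30* were higher with shRNA2 and *ZNF616* was lower (background 1.92% higher and 4.79% lower, 6.71% in all). *ZNF44* (chr19:12271810-12294899) stood at 1.48, 1.62 and 1.39 FPKM in control cells, 1.58, 1.71 and 1.79 FPKM with shRNA1 and 2.12, 2.23 and 2.08 FPKM with shRNA2. The shRNA2 libraries exceeded all the others, and the difference between the hairpins was 0.22 (SE 0.04, adjusted p = 0.0267). *ZNF440* (chr19:11814273-11835212), in the same block of genes, was at 1.34, 1.28 and 1.33 FPKM in control cells, 1.29, 1.23 and 1.30 FPKM with shRNA1 and 1.65, 1.66 and 1.46 FPKM with shRNA2 (0.19, SE 0.04, adjusted p = 0.0251). Here shRNA1 and control libraries were interleaved and shRNA2 stood above both.

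*ZNF30* (chr19:34926903-34945172) was at 2.75, 3.00 and 2.73 FPKM in control cells, 2.44, 2.76 and 2.73 FPKM with shRNA1 and 3.10, 3.27 and 3.13 FPKM with shRNA2 (0.19, SE 0.04, adjusted p = 0.0439). Neither hairpin passed the test against control for this gene. *ZNF616* (chr19:52113091-52139938) moved the other way: it was at 2.04, 2.01 and 2.12 FPKM in control cells, 2.22, 2.38 and 2.23 FPKM with shRNA1 and 1.57, 1.78 and 1.63 FPKM with shRNA2. The control libraries lay between the hairpins without overlap. From shRNA1 to shRNA2 the gene fell by 0.30 on the log2 scale (SE 0.04, adjusted p = 0.00460), and this was the 1 call of the 4 that held in all 19 alternative fits, with adjusted p up to 0.0311. Leaving out any 1 shRNA1 library or shRNA2 replicate 1 left *ZNF616* as the only call (1), and 2 members were called without control replicate 3 or shRNA2 replicate 3.

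The promoters of *ZNF551*, called with both hairpins, and of *ZNF44*, *ZNF440* and *ZNF616*, which differed between the hairpins, are shown with the elements counted over all members in the next paragraph. Each window runs from 250 bases before to 50 bases after the RefSeq start (GRCh38.p14), 5′ to 3′ on the gene's strand. For *ZNF44* the start in the expression tables lay 16 bases further upstream. Capitals mark every match of CCGGAAG, the core bound by ETS factors, and of CCAAT, the box bound by NF-Y, on either strand.
ZNF551 (chr19:57681727-57682026, plus strand): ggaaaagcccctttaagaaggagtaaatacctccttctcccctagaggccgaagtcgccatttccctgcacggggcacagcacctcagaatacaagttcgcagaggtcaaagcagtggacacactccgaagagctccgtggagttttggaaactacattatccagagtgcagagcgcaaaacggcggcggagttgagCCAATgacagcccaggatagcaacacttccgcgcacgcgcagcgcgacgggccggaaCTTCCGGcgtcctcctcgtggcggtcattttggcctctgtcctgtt
ZNF44 (chr19:12294834-12295133, minus strand): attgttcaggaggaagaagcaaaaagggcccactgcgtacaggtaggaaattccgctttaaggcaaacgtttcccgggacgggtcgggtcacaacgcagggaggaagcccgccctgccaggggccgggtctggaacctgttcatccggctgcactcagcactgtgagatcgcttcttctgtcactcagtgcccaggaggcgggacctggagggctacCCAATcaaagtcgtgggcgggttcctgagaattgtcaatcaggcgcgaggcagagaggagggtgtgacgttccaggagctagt
ZNF440 (chr19:11814023-11814322, plus strand): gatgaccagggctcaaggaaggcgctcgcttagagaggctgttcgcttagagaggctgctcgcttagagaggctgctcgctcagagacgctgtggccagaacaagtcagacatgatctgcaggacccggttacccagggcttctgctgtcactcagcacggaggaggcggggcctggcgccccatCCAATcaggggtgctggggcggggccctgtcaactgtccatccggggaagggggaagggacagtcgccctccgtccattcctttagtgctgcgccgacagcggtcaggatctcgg
ZNF616 (chr19:52139889-52140188, minus strand): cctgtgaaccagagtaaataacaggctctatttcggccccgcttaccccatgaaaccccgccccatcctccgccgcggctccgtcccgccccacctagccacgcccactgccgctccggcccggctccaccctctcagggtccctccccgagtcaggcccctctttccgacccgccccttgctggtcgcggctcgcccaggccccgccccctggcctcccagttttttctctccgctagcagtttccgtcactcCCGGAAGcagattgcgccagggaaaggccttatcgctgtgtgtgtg

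*ZNF44* and *ZNF440*, both higher with shRNA2, each held 1 match of CCAAT and 0 of CCGGAAG, and *ZNF616*, lower with shRNA2, held 1 of CCGGAAG and 0 of CCAAT. *ZNF551* held 1 of each. The window of *ZNF30*, also called higher with shRNA2 than with shRNA1, is not shown, so the members called between the hairpins are not all covered. Such matches in 4 windows are descriptions and do not show binding. Over the 210 members with a promoter in the table, CCGGAAG was found in 44.3%, against 37.5% of the *ZNF* genes on other chromosomes, 20.6% of all tested genes and 10.7% of all 27305 promoters. CCAAT was found in 52.9% of members and 35.7% of all promoters, and GGGCGG, the GC box bound by Sp1, in 69.5% and 44.6%. Against all tested genes the GC box was not more frequent: 65.3% of tested members and 72.1% of all tested genes held it, and CCAAT was in 49.6% and 37.0% of them. TATAAA, the TATA box, was found in 1.90% of members and 11.95% of all promoters. Among tested members it was in 2.48%, against 5.27% of all tested genes. The members called with at least 1 hairpin held CCGGAAG in 11 of 24 promoters (45.8%), near the 43.8% of all tested members.

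Along the chromosome the members fell into 16 blocks, a new block beginning after a gap of over 1 Mb without a member. The largest were block 16 near the end of the long arm (55.5 to 58.5 Mb) with 57 members, block 15 (51.6 to 53.6 Mb) with 39, block 5 on the short arm next to the centromere (19.7 to 24.1 Mb) with 37, block 3 (11.5 to 12.6 Mb) with 25, and blocks 9 (36.2 to 37.8 Mb) and 12 (43.5 to 45.1 Mb) with 24 each. Among these 6 blocks the share of members that reached the filter ran from 40.0% in block 3 and 43.2% in block 5 to 70.8% in block 12, and in block 2 (7.07 to 9.79 Mb, 15 members) it was 80.0%. The highest member of each block was *ZNF57* in block 1, *ZNF358* in 2, *ZNF653* in 3 (3.50 FPKM in control cells), *ZNF429* in 5 (3.57 FPKM), *ZNF302* in 8 (4.98 FPKM), *ZNF146* in 9, *ZNF226* in 12 (8.88 FPKM), *ZNF331*, an imprinted gene, in 15 (5.59 FPKM) and *ZNF580* in 16. Among these only *ZNF57* was called.

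The 9 called members were spread over blocks 1, 8, 9, 12, 14, 15 and 16, with 2 risen members in block 9 and both directions in block 16. The median log2 difference was positive or 0.00 in every block with a tested member, from 0.00 in block 11 to 0.23 in block 14, which holds *ZNF473* alone. Position did not order the differences: the Spearman rho between start and log2 difference over the 139 tested members was 0.03, and that between 126 pairs of adjacent tested members within a block was 0.12. These are descriptions across genes that share their libraries. Over all tested genes with a known length the log2 difference correlated with transcript length (rho -0.44, 12295 genes), and over the members this relation was weaker (rho -0.15). The median transcript length was 2935 bases for tested members and 2659 for all tested genes.

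**Figure D4:**
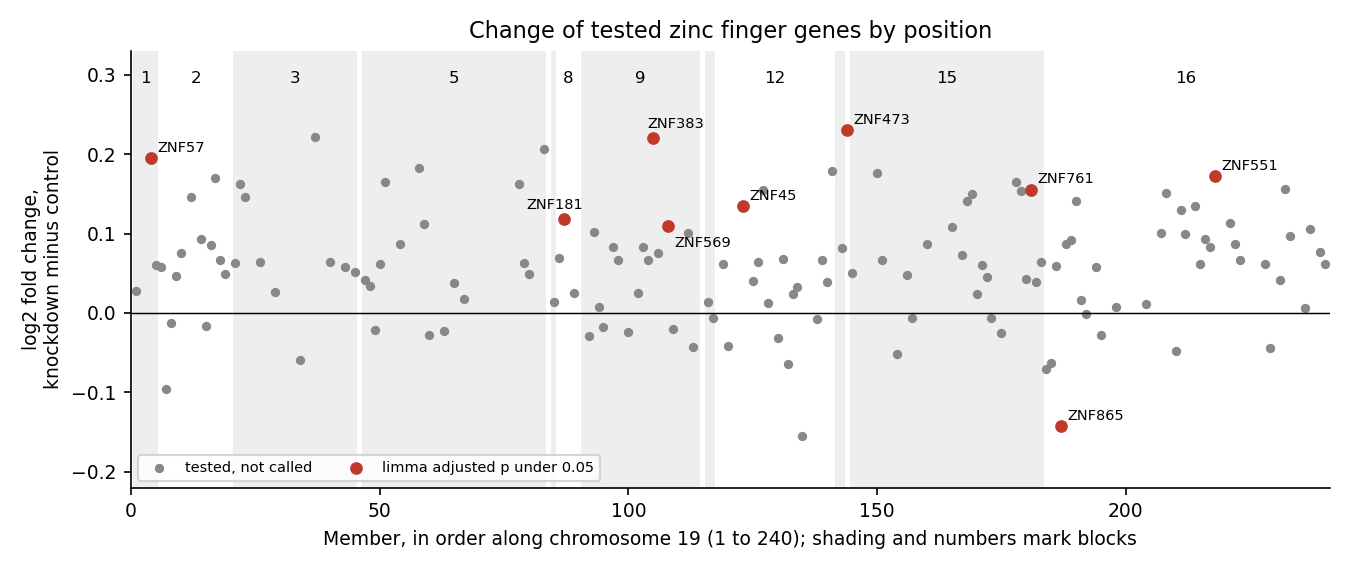
Log2 fold change between knockdown and control cells (vertical axis) for the 139 tested members, placed in their order along chromosome 19 among all 240 members (horizontal axis), with alternating shading for blocks and numbers over blocks of at least 5 members. The 8 risen members and *ZNF865*, in red, are scattered over 7 blocks, and most grey points lie above 0.

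Apart from block 14, which is *ZNF473* alone, block 15 was the only block whose summed FPKM was higher in every knockdown than in every control library, at 59.1, 61.7 and 60.9 FPKM in control cells, 63.3, 65.9 and 62.4 FPKM with shRNA1 and 63.6, 69.9 and 61.8 FPKM with shRNA2. The lowest knockdown value exceeded the highest control value by little, and the mean difference was 6.46%. Of all tested genes, taken singly, 16.4% were higher in every knockdown library, and the sum over all genes was 3.43% higher. Block 3 differed mainly with shRNA2. Its sum was 24.8, 27.8 and 26.6 FPKM in control cells, 26.6, 28.0 and 28.0 FPKM with shRNA1 and 31.3, 32.3 and 29.5 FPKM with shRNA2, which is 17.7% above control with shRNA2 and 4.26% with shRNA1. Other blocks also rose with shRNA2, among them block 14 (28.2%), block 1 (15.2%), block 10 (13.7%) and block 13 (12.1%). Block 4 was at -2.31%, and the sum over all genes rose by 4.83% with shRNA2. Block 3 holds *ZNF44*, *ZNF440* and *ZNF823*, the members called there with shRNA2. The median log2 difference of its 10 tested members was 0.14 with shRNA2 and 0.04 with shRNA1. In block 2, which holds *ZNF358*, the sums overlapped and the means differed by -0.03% between knockdown and control.

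**Figure D5:**
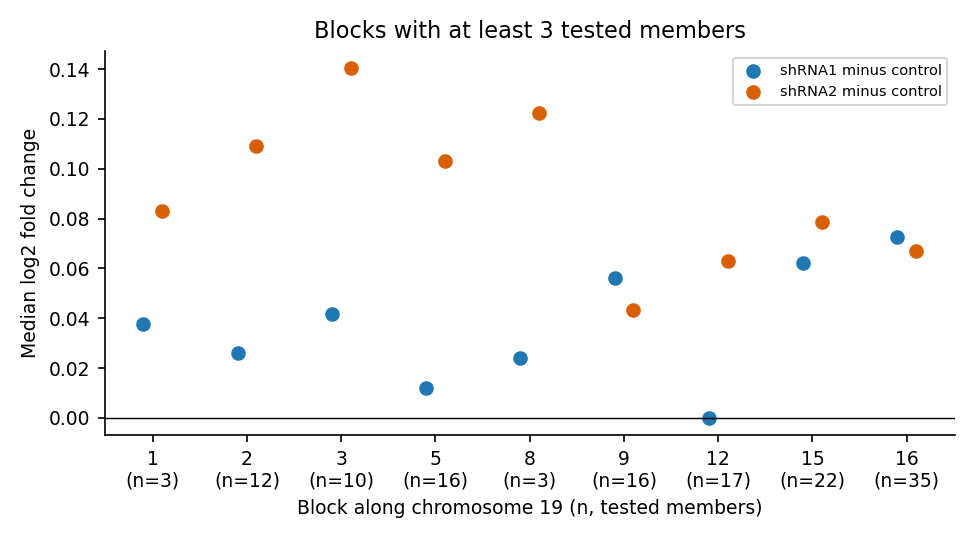
Median log2 fold change of tested members in each block with at least 3 of them (vertical axis), for shRNA1 and for shRNA2 against the same control libraries, with the number of tested members under each block. The shRNA2 median is the higher one in blocks 1, 2, 3, 5, 8, 12 and 15, and the shRNA1 median in blocks 9 and 16.

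The corepressor genes with which KRAB proteins act were examined from a list of 19 genes, of which 18 had values and all 18 were tested (*DNMT1* was not analysed here). *TRIM28* itself stood at 123, 125 and 125 FPKM in control cells, 125, 125 and 127 FPKM with shRNA1 and 128, 119 and 128 FPKM with shRNA2, and the groups overlapped (log2 difference 0.01, SE 0.03). *SETDB1*, the H3K9 methyltransferase, was likewise not called (18.9 FPKM in both groups). With pooled knockdown 1 of the 18 genes rose and 5 fell, where 13.5% and 7.1% of all tested genes did. With shRNA1 alone 1 rose and 5 fell (background 11.7% higher and 7.19% lower). With shRNA2 alone 3 rose and 2 fell, which is near the background of 15.3% higher and 11.4% lower.

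The genes that fell belong to several complexes. *CHD3*, a remodeler of NuRD, was at 30.1, 30.5 and 29.1 FPKM in control cells, 23.6, 22.7 and 22.6 FPKM with shRNA1 and 23.1, 24.4 and 21.7 FPKM with shRNA2, well below control in all 6 knockdown libraries. On the log2 scale it fell by 0.36 (SE 0.04, adjusted p = 0.00138). *CHD4*, its paralog, fell by 0.18, *CBX5*, which encodes HP1α, fell by 0.16, *MORC2*, an ATPase that acts with the HUSH complex, fell by 0.14 and *ATRX*, a remodeler that deposits histone H3.3 with DAXX, fell by 0.20 (adjusted p = 0.0226, 0.0131, 0.0266 and 0.0477). With shRNA2 alone *CHD4*, *MORC2* and *ATRX* did not pass the test (adjusted p = 0.0529, 0.0607 and 0.117). The groups of *ATRX* overlapped, at 3.86 to 4.42 FPKM in control and 3.23 to 4.05 FPKM in knockdown libraries. *PPHLN1*, which encodes the HUSH subunit periphilin, rose by 0.18 (adjusted p = 0.00988), from 36.0 ± 1.04 to 41.1 ± 1.45 FPKM (SD, n = 3 and 6). *MPHOSPH8*, which encodes another HUSH subunit, was the 1 gene of the list called between the hairpins, higher with shRNA2 by 0.18 (adjusted p = 0.0299). Of all tested genes, 6.71% were called in that comparison, 1.92% higher and 4.79% lower. The alternative fits, among them the one with the length trend removed, are not given here for the genes of this list. The relation of these genes to the members' levels was not tested.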

How the data were processed

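RNA was extracted from 9 DU145 samples, and libraries were made with a TruSeq Stranded mRNA kit. The authors mapped reads with STAR and computed FPKM with Cufflinks, and they deposited 1 FPKM table per library, listed by RefSeq accession (83497 entries). Versions and strand settings are not given in the sources used here. The labels and the loci give hg38, whereas the methods name a mouse build.

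Accessions were matched to symbols (72645 of 73240) and FPKM were summed per gene. Genes whose 9 libraries averaged 1 FPKM or more were fitted on log2(FPKM + 1) with limma 3.58.1 in R 4.3.3, as 6 knockdown against 3 control libraries and as 3 groups, with Benjamini-Hochberg adjustment over 12509 genes and a threshold of 0.05. The steps were tested on simulated data. The members and lists were chosen with earlier results of these data known. Named were the called members with non-overlapping groups (up to 8 per direction), those called between hairpins (up to 3 per direction), the 5 highest and the highest of each block with at least 3 tested members. Alternatives covered pseudocount, filter, scaling, transcript length, replicate block, transcript set, test criteria and each left-out library. A planned count of protein features was not run. Some marker genes are not reported here.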

Additional observations from a re-analysis of the deposited data

Results flagged for a closer look

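Among the 33 sets of 6 knockdown libraries examined for a value far from the others, 2 held one by Dixon's criterion, where chance alone gives about 1 in 20. *ZNF865* measured 5.50 FPKM in shRNA2 replicate 2, below the other 5 knockdown libraries (5.99 to 6.15 FPKM). The summed FPKM of block 5 was 47.0 in the same library, above the other 5 (39.4 to 41.2 FPKM). That library also had the lowest FPKM sum over all genes (733113), though close to that of control replicate 2 (736065). The sums of shRNA2 replicates 1 and 3 (812110 and 810169) lay above those of all other libraries. The part of these sums in both values was not tested.

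The hairpins differed from each other, by the direct limma contrast, in 4 members. The log2 difference of shRNA2 from shRNA1 was 0.22 for *ZNF44*, 0.19 for *ZNF30*, 0.19 for *ZNF440* and -0.30 for *ZNF616*.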

How the results depend on the processing

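The median log2 difference of tested members stayed positive and above that of all tested genes in all 19 alternatives, between 0.04 and 0.08, and no called value changed sign. Among named members that were not called, the sign of *ZNF302*, *ZNF226*, *ZNF414*, *ZNF787*, *ZNF580*, *ZNF429* and *ZNF653* turned under at least 1 alternative. The counts of called members moved. Pooled knockdown called 3 of 28 members with a filter of 5 FPKM, 0 with an unadjusted p of 0.01 and a fold change of 1.2 taken on log2(FPKM + 1), and 3 to 12 with 1 library left out. The shRNA1 count was 3 without a filter, 0 with a filter of 5 FPKM, 2 with a filter and pseudocount of 0.1, 3 with the length trend removed, 8 with only the groups compared and 0 to 9 with 1 library left out. The shRNA2 count was 5 with a filter of 5 FPKM, 10 with only the groups compared and 11 to 19 with 1 library left out. Between the hairpins it was 0 with a filter of 5 FPKM, 8 with the length trend removed, 1 with only the groups compared and 1 to 4 with 1 library left out. The filter of 5 FPKM tested fewer genes, and for the others the cause was not tested. The excess of the members' sum was 5.65% without the 5 highest members, an alternative chosen after seeing the data. With a gap of 500 kb there were 20 blocks. Adding a replicate block gave 12, 4, 28 and 4 called members in the 4 comparisons and ended the calls of *ZNF551*, *ZNF181* and *ZNF440*. Correlations of same-numbered libraries ran from -0.07 to 0.11, and those of differently numbered libraries from -0.12 to 0.18. The numbers thus gave no sign of pairing, but with 3 libraries per group this cannot exclude it. Depth limits the weakly expressed members most.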
